A study of Mus musculus with 6 samples.

Results

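This account covers 8 noncoding genes of the mouse genome that carry small nucleolar RNAs (snoRNAs) in their introns, namely Gas5, Snhg1, Snhg3, Snhg5, Snhg6, Snhg8, Snhg12 and Epb41l4aos. They were taken by symbol from the GENCODE M21 annotation, and 73 of their 74 annotated transcripts were among the 68473 transcripts of the deposited table. The cells were C57BL/6 mouse embryonic stem cells in 3 groups of 2 libraries each: KO1 and KO2, 2 knockouts of Mettl3, and control. Mettl3 encodes the catalytic methyltransferase that places m6A on RNA, and the study compared transcription with and without it. All groups grew in serum medium with LIF, the GSK3 inhibitor CHIR99021 and the MEK inhibitor PD0325901. The sources used here do not give how the knockouts were made, whether each was 1 clone, or the genotype of the control beyond its name. The labels leave unsaid whether the paired libraries of a group came from separate cultures, so the p-values here rest on a spread that may be technical and measure nothing beyond these samples.

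snoRNAs are short RNAs that guide chemical changes of ribosomal RNA: those with a C box and a D box direct 2′-O-methylation, and those with H and ACA boxes direct pseudouridylation. In vertebrates most are cut out of introns of a host gene after splicing, so a host gene must be transcribed and spliced for its snoRNAs to be made. The spliced RNA of many noncoding hosts is short-lived in growing cells, where translation of its short reading frames exposes it to nonsense-mediated decay. Gas5 took its name, growth arrest-specific, from the rise of its RNA when that decay stops.

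The measurement was mNET-seq, which sequences the short RNA that RNA polymerase II holds after nuclease digestion of chromatin; fragments of 35 to 100 bases were kept. The authors deposited an escaping index. The labels do not state its windows or offset, and the log2 scale was taken from the values. The index is read here as the log2 of a ratio within a transcript plus a small offset. On that reading it is high where polymerase signal past the start region of a transcript outweighs the signal at the start. It measures neither RNA abundance nor the total polymerase on a gene, so it can show neither the loss of Mettl3 nor whether markers of the labelled cell type are expressed. Transcripts of Gas5 with the same start and end but different exons, Gas5-209 with 8 exons and Gas5-218 with 4, had identical values, as did Snhg12-205 with 4 exons and Snhg12-206 with 5. The 73 transcripts therefore gave 71 distinct profiles of 67020 in the table. The depth per library is unknown. Replicate libraries correlated at r = 0.978 in KO1, 0.979 in KO2 and 0.978 in control across transcripts, which are not independent replicates.

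A transcript was called outer-start when its 5′ end lay within 100 bases of the most upstream annotated 5′ end of its gene, and internal-start otherwise. This gave 26 outer-start transcripts (25 distinct profiles) and 47 internal-start transcripts (46 distinct profiles). For Gas5 the rule left 1 outer-start transcript, Gas5-212. The main start cluster of Gas5, 13 profiles that begin between 161035163 and 161035188, falls among the internal starts although RefSeq annotates a start of the gene there, at 161035166.

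The genes hold 28 annotated snoRNA genes, 20 of them with a model of 35 to 100 bases, the length kept on the gel. No snoRNA had a value of its own in the table, so their signal enters only through the hosts. The sequences below are the snoRNAs in the first 300 bases of the host transcripts that passed a test. Where there was none, the next one downstream is shown, 674 bases from the start for Snhg6-205. The one that follows the main Gas5 start is also shown. They come from GENCODE M21 (mm10). Capitals mark the C box (TGATGA, searched in the first 20 bases) and the D box (CTGA, searched in the last 15) where those letters occur. Snord50b and Snord50a lie in Snhg5, at chr9:88521797-88521868 and chr9:88521529-88521600 on the minus strand. Gm25894 and Gm23246 lie in Snhg1, at chr19:8724251-8724325 and chr19:8725594-8725660 on the plus strand. Snord87 lies in Snhg6, at chr1:9942463-9942549 on the minus strand. Gm26224 and Snord47 lie in Gas5, at chr1:161035394-161035473 and chr1:161038082-161038158 on the plus strand.
Snord50b: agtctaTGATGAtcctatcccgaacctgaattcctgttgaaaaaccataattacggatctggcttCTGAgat
Snord50a: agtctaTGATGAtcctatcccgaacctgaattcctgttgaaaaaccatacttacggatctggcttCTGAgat
Gm25894: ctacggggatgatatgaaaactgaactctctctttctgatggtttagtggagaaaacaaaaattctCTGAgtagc
Gm23246: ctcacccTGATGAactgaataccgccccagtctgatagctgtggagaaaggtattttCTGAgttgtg
Snord87: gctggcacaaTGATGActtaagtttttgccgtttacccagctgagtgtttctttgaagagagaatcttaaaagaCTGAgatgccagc
Gm26224: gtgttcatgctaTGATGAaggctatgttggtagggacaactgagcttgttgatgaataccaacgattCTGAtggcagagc
Snord47: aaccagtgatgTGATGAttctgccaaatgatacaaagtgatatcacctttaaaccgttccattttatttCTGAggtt

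Snord50a and Snord50b differed at 1 of 72 bases, an identity of 98.61%. Snora73a and Snora73b, the H/ACA snoRNAs of Snhg3 that act in the processing of ribosomal RNA, differed at 7 of 205 bases (96.59%). Reads from such copies can map to both, and the sources used here do not say how they were treated, so values of Snhg5 and Snhg3 carry that uncertainty.

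The starts of the hosts are shown next because transcripts with the same start and end share their index. Each stretch is from RefSeq on build GRCm38.p6 and holds the 50 bases before the annotated start and the 50 bases from it. Capitals mark a TATA-like motif (TATAA, the form TATATA or the form TTTATA) in the stretch from 50 to 11 bases before the start. In Snhg12 the motif TATATA overlaps TATAA. The stretches are chr1:161035116-161035215 (plus strand) for Gas5, chr19:8723437-8723536 (plus) for Snhg1, chr4:132308628-132308727 (plus) for Snhg12, chr9:88522848-88522947 (minus) for Snhg5 and chr3:123508287-123508386 (minus) for Snhg8.
Gas5: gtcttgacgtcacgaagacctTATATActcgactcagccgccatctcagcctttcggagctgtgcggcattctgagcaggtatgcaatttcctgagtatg
Snhg1: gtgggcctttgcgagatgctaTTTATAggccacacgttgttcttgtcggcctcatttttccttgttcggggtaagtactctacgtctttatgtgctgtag
Snhg12: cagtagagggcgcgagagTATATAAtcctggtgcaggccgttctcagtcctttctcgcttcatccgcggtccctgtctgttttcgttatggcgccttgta
Snhg5: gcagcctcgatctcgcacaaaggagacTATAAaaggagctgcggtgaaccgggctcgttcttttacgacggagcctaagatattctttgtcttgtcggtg
Snhg8: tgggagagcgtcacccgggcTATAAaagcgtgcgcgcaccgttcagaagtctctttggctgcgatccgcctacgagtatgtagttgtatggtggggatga

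Such a motif was present on the sense strand in 5 of the 7 host promoters matched in RefSeq (2 of the 7 belong to Gas5; those of Snhg3 and of the upstream Gas5 start held none in that stretch), against 5.45% of 32851 mouse promoters. By form, TATAA was in 3 of the 7 (4.49% of all promoters), TATATA in 2 (1.23%) and TTTATA in 1 (0.935%). With either strand searched, the counts were 5 of 7 and 6.12%. In Snhg3, TATAA occurs after the RefSeq start, outside the stretch searched, and was not counted. A match describes the letters and not a bound factor.

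Host transcripts with no snoRNA close to their start had a high index for their length. Each member was set beside all transcripts whose genomic span was within 20% of its own. Of the 29 profiles with no snoRNA in the first 300 bases, all had a higher index than most transcripts of like length, and 23 had a higher index than 95% of them. Their median was 3.15 (log2), and at the median they exceeded 97.3% of like-length transcripts. The 42 profiles with a snoRNA in the first 300 bases had a median index of -0.42 and exceeded 53.7% at the median, and 9 of them were below 95% of like-length transcripts. The split is confounded with start class, as 21 of the 29 were outer starts, against 4 of the 42. Outer starts exceeded 97.6% at the median without a snoRNA there and 43.9% with one. Internal starts exceeded 90.8% without (8 profiles) and 56.2% with one (38 profiles). The like-length transcripts were of both start classes. These levels are means over the 6 libraries, and they are given without a test because transcripts of 1 gene share most of their signal.

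The 42 profiles with a snoRNA near the start were not uniform. In the main Gas5 start cluster, 12 of the 13 profiles had an index of 2.53 to 4.56 and exceeded at least 96.6% of like-length transcripts, with Gm26224 starting 208 to 231 bases downstream. The 4 outer-start profiles of short genes, Epb41l4aos-201, Epb41l4aos-202, Snhg8-202 and Snhg8-203, have a snoRNA that starts 225 to 272 bases downstream, and their index lay between -2.43 and -0.50. In hosts that are not members, the internal starts differed in the same direction. There, 79 profiles with a snoRNA in the first 300 bases exceeded 11.8% of like-length transcripts at the median, against 70.7% for the 387 with snoRNAs only after it. The outer starts of these hosts give no such comparison. Their 463 profiles with snoRNAs only after the first 300 bases exceeded 82.0% at the median, and only 1 profile had a snoRNA earlier (85.0%).

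**Figure D1:**
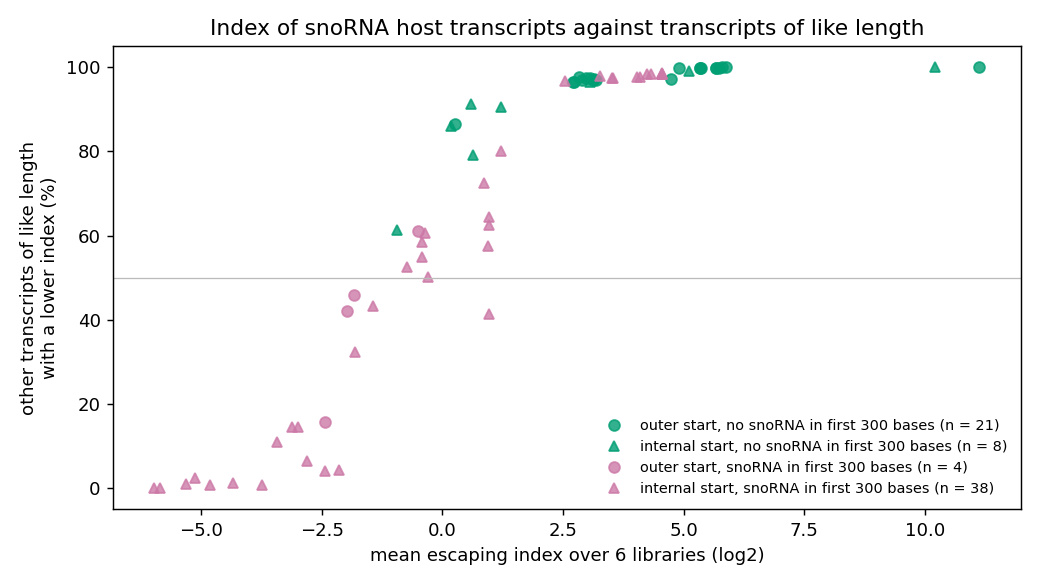
The x axis is the mean escaping index over 6 libraries (log2) and the y axis the share of other transcripts of like length with a lower index (%), 1 symbol for each of the 71 distinct profiles. The 29 profiles with no snoRNA in the first 300 bases all lie above 50%, and the 9 profiles below 5% all have a snoRNA there.

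Within a gene the index could differ sharply between starts a few bases apart. In Gas5, transcripts that end between 161038478 and 161038539 had a mean index of 4.56 when they began at 161035163 (Gas5-224), 4.33 at 161035178 (Gas5-220), 4.09 at 161035184 (Gas5-222), 4.04 at 161035186 (Gas5-204) and 0.97 at 161035188 (Gas5-211). The last step, over 2 bases, was -3.07 ± 0.022 (SD over 6 libraries). Snhg8-203, which begins 71 bases downstream of Snhg8-201, was lower than it by 2.09 on the log2 scale in the mean of 6 libraries (difference -2.09 ± 0.21, SD). Epb41l4aos-202 differed from Epb41l4aos-201, 47 bases upstream, by -1.93 ± 0.24 (SD over 6 libraries). These 3 differences kept their sign in all 6 libraries, and each was larger in size than 1.48, the largest knockout change among the hosts. Most neighbouring starts differed far less: Gas5-204 was at -0.52 from Gas5-224, 23 bases upstream, and Snhg1-211 and Snhg1-203, 12 bases apart, had mean indices of 5.73 and 5.67.

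**Figure D2:**
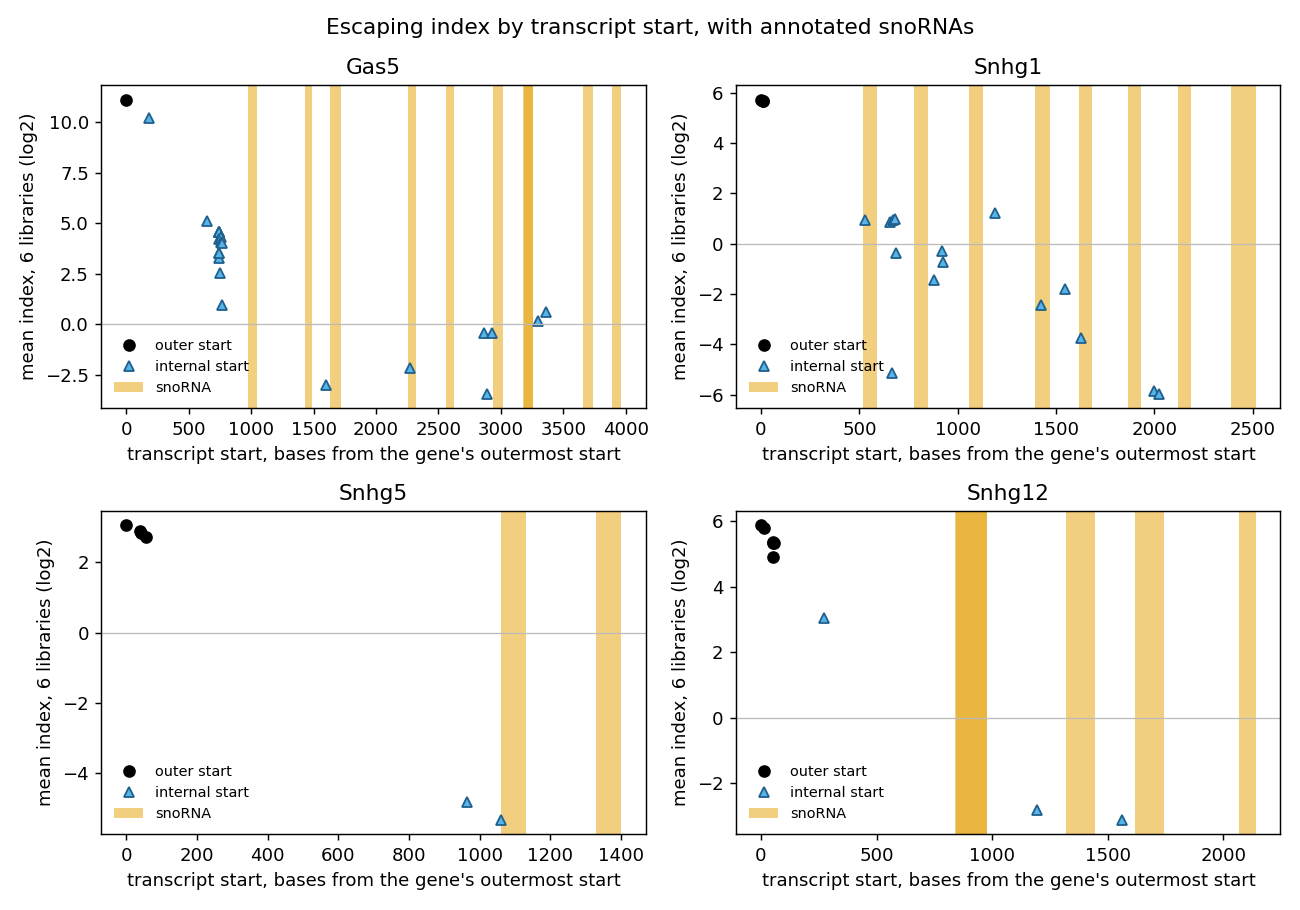
Mean escaping index over 6 libraries (log2, y axis) against the transcript start in bases from the outermost start of the gene (x axis) for Gas5, Snhg1, Snhg5 and Snhg12, with circles for outer starts, triangles for internal starts and bands for annotated snoRNAs (darker where 2 models overlap). Snhg5 has a mean of -4.82 and -5.31 at the 2 starts just before Snord50b, and Snhg1 has -5.97 at its last start.

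The median index of a library was 2.98 and 2.97 in KO1 and 2.87 and 2.87 in KO2, against 3.19 and 3.20 in control, with a median change over all profiles of -0.20 in KO1 and -0.32 in KO2 (log2), and -0.34 and -0.53 over all outer-start profiles. The outer-start host profiles had a median change of -0.10 in KO1 and 0.10 in KO2. The internal-start host profiles had medians of -0.0031 in KO1 and 0.023 in KO2. Over all internal-start profiles the medians were -0.085 in KO1 and -0.13 in KO2. Over 11162 other internal-start profiles with a span of 713 to 3933 bases they were -0.013 and -0.055, near those of the hosts. The centring below is on all profiles and not on internal starts. Relative to the genome-wide shift, with each library centred on its own median, the outer-start medians were 0.12 in KO1 and 0.43 in KO2 and the internal-start medians 0.22 and 0.35, so the signs of both KO1 medians turn with the scaling. In KO2, 17 of the 25 outer-start host profiles were above 0 as deposited. Of 8049 other outer-start profiles with a span in the same range, 776 to 5650 bases, 78.2% were below 0, with a median of -0.47.

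Those counts lean on genes with many transcripts. Taken as the longest outer-start transcript of each gene, 3 of the 8 hosts were above 0 in KO1 and 5 of 8 in KO2. No test was made for the hosts as a group. Both knockouts were set against the same 2 control libraries, so their changes are not independent of each other.

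In KO2 against control, 7 of the 71 host profiles passed the limma test at an adjusted p under 0.05, where 9.79% of all profiles passed. Of the 7, 2 rose (0.386% of all profiles rose) and 5 fell (9.41% of all fell). All 7 were internal-start profiles, as were 46 of the 71 tested. Over the table, 189 of 36820 internal-start profiles rose and 1867 fell, against 70 and 4433 of 30124 outer-start profiles. The 2 that rose, Gas5-215 and Snhg6-205, have no snoRNA in their first 300 bases, though for Gas5-215 the next one starts at 301. The 5 that fell, Snhg1-208, Snhg1-209, Snhg1-216, Snhg5-203 and Snhg5-205, each have 1 or more there. In hosts that are not members, 2 of 79 internal-start profiles with a snoRNA in the first 300 bases rose and 12 fell, and 14 of 387 with snoRNAs only further on rose and 16 fell. At an unadjusted p under 0.05 (31.7% of all profiles), 13 host profiles were higher in KO2 and 11 lower, against 3.12% and 28.6% of all profiles.

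In KO1 against control, none of the 71 host profiles and none of the 67020 profiles passed (0.0%). With an unadjusted p under 0.05 (24.1% of all profiles), 3 host profiles were higher in KO1 and 1 was lower, against 4.19% and 19.9% of all profiles. In the average of both knockouts, 2 host profiles rose, again Gas5-215 and Snhg6-205, and 0 fell, where 8.5% of all profiles passed (0.337% rose and 8.16% fell). Unadjusted, 31.0% of all profiles had a p under 0.05 for that average (3.46% higher, 27.5% lower), and 8 host profiles were higher and 8 lower. All 4 knockout libraries lay above both controls in 14 host profiles (5.71% of all profiles) and below both in 16 (31.3%).

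The calls were lost when the libraries were rescaled and when any 1 library was left out. Leaving out a KO1 library did not move the KO2 changes themselves. For Snhg6-205 the change stayed at 1.48, with an SE of 0.21 against 0.19 with all libraries. When each library was centred on its own median, when the libraries were quantile normalized, and without any 1 of the 6 libraries (KO1 r1, KO1 r2, KO2 r1, KO2 r2, control r1 or control r2), no profile in the table passed in KO2, and the 7 host profiles had adjusted p from 0.0703 to 0.179. Their directions were the same under all of these settings. With median centring the 2 rises were larger, 1.81 for Snhg6-205 and 1.56 for Gas5-215. Their unadjusted limma p were 0.00011 and 0.00019, against 0.00032 and 0.00066 as deposited. The 5 falls were smaller with median centring, between -0.90 and -0.60.

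**Figure D3:**
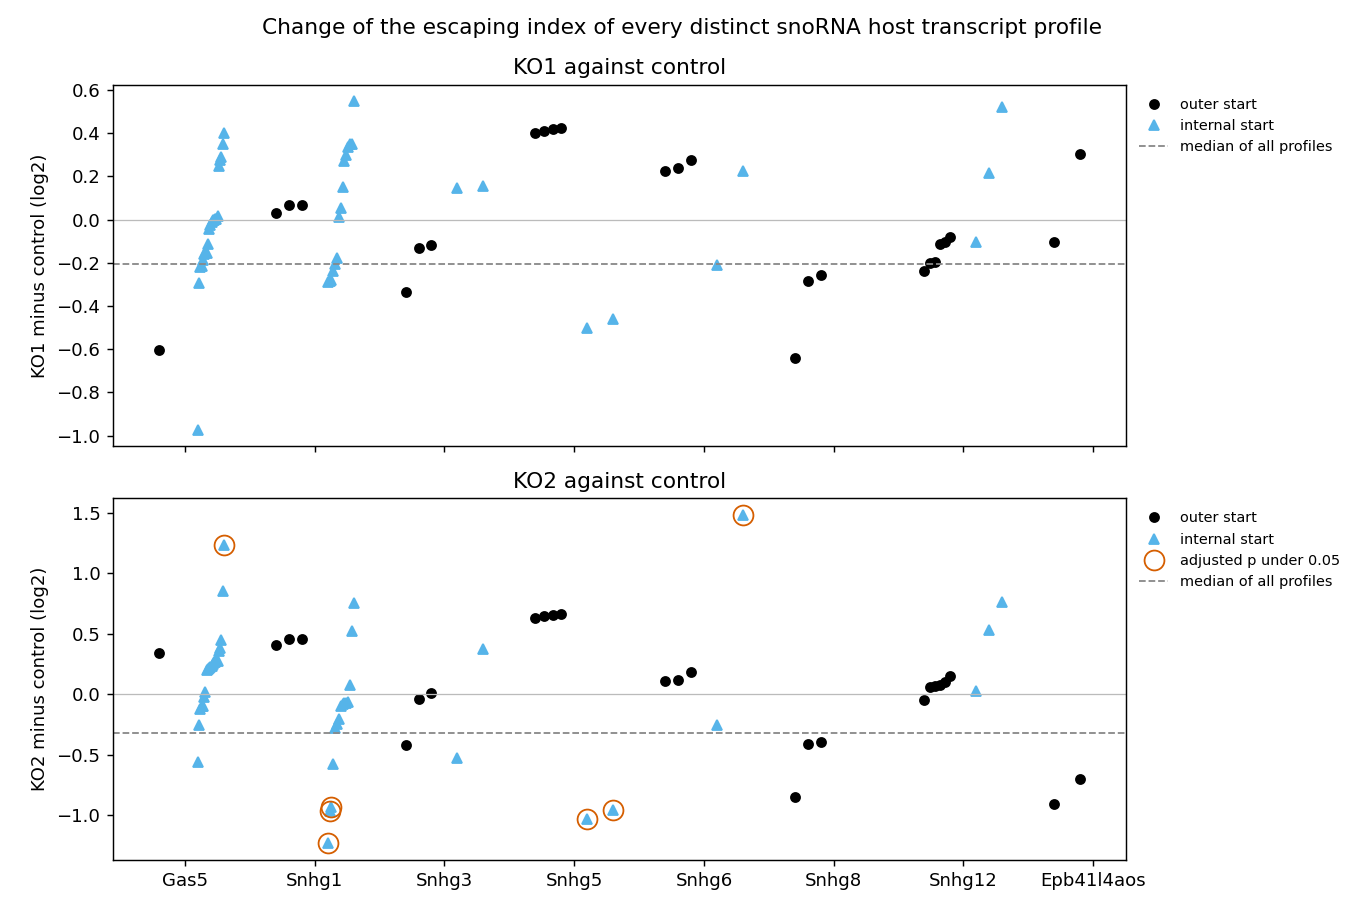
Change of the escaping index (log2, y axis) of the 71 distinct host profiles by gene (x axis; profiles of a gene in order of their change), KO1 minus control above and KO2 minus control below, with circles for outer starts, triangles for internal starts, rings for an adjusted p under 0.05 and a dashed line at the median of all profiles. The 7 rings are all in KO2 and all around internal starts.

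Snhg5, the host of Snord50a and Snord50b (chromosome 9, 88521050 to 88522929, minus strand), showed opposite differences at its outer and its internal starts. Its outer-start transcript Snhg5-202 had an index of 3.17 and 3.06 in KO1 libraries and 3.29 and 3.38 in KO2 libraries, against 2.70 and 2.68 in control libraries. All 4 knockout libraries lay above both controls. The change was 0.43 ± 0.17 (SE) in KO1 with an adjusted p of 0.199 and 0.64 ± 0.17 in KO2 with an adjusted p of 0.0639, so neither passed. The other 3 outer-start transcripts had changes of 0.40 to 0.42 in KO1 and 0.63 to 0.66 in KO2.

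The 2 internal-start transcripts of Snhg5 begin 97 and 1 bases before Snord50b. Snhg5-203 had -4.88 and -4.74 in KO1 libraries and -5.37 and -5.31 in KO2 libraries, against -4.32 and -4.30 in control libraries. It fell in KO2 by 1.04 ± 0.21 (SE, adjusted p = 0.0414), and in KO1 the change was -0.50 ± 0.21 (adjusted p = 0.21). Snhg5-205 had -5.40 and -5.20 in KO1 libraries and -5.82 and -5.76 in KO2 libraries, against -4.85 and -4.82 in control libraries. It fell in KO2 by 0.96 ± 0.21 (adjusted p = 0.0478). For both transcripts all 4 knockout libraries lay below both controls.

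With the values taken as log2, the Snhg5-203 index on the linear scale was 0.0242 and 0.0251 in KO2 libraries, against 0.0502 and 0.0508 in control libraries. On that reading far more signal lay at its start than downstream in every library. At such levels the log2 change depends on any constant added, and the size of the authors' offset is not given. With 0.4 added to the ratio, the change of Snhg5-203 in KO2 was -0.09, and those of the other 4 profiles that fell were between -0.08 and -0.04. None of the 5 passed then (adjusted p from 0.385 to 0.715), nor with 4 added (from 0.708 to 0.887). The 2 profiles that rose still passed with 4 added, with smaller changes of 0.35 for Gas5-215 and 0.59 for Snhg6-205. The ratios of the 5 falls lay far below 0.4, so the loss of their calls was fixed by their levels. The ratios of the 2 rises were higher. Adding a constant therefore cannot tell how far the falls or the rises hold.

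**Figure D4:**
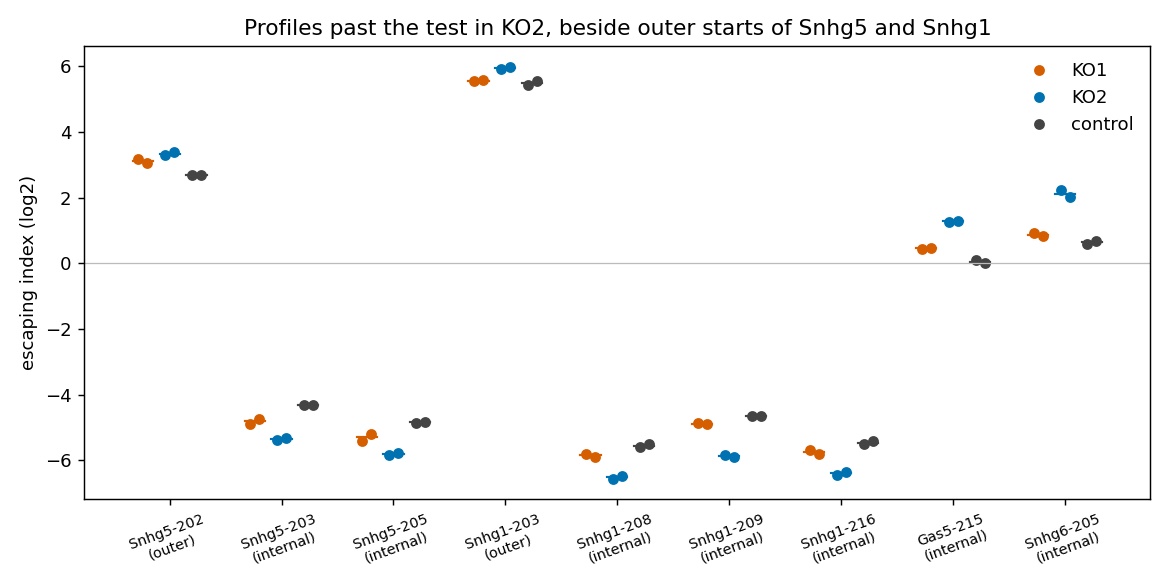
Escaping index (log2, y axis) in each library of KO1, KO2 and control (points, with a bar at the mean of 2) for the 7 profiles that passed in KO2 and an outer-start transcript each of Snhg5 and Snhg1 (x axis). For Snhg5 the knockouts lie above control at the outer start and below it at the internal starts.

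Snhg1, the host of 8 annotated snoRNA genes including Snord22 (chromosome 19, 8723475 to 8726443, plus strand), had 3 outer-start and 15 internal-start transcripts. Its highest transcript, Snhg1-211, had 5.59 and 5.64 in KO1 libraries and 5.94 and 6.04 in KO2 libraries, against 5.51 and 5.66 in control libraries. Snhg1-203, which starts 12 bases downstream, had 5.55 and 5.58 in KO1 libraries and 5.91 and 5.99 in KO2 libraries, against 5.44 and 5.55 in control libraries. In both, KO1 overlapped control and KO2 lay above it. The KO2 change was 0.40 ± 0.17 (SE, adjusted p = 0.162) for Snhg1-211 and 0.45 ± 0.16 (adjusted p = 0.123) for Snhg1-203, so neither passed.

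Of the 15 internal-start transcripts of Snhg1, 3 fell in KO2 and none rose. Snhg1-209, which begins 111 bases before Gm25894 and has the shortest span of the gene at 713 bases, had -4.87 and -4.90 in KO1 libraries and -5.85 and -5.90 in KO2 libraries, against -4.64 and -4.65 in control libraries. It fell in KO2 by 1.23 ± 0.20 (SE, adjusted p = 0.0361). Snhg1-208 and Snhg1-216 begin 94 and 119 bases before Gm23246, near the 3′ end of the gene. Snhg1-208, the lowest of the 71 profiles, had -5.80 and -5.88 in KO1 libraries and -6.56 and -6.47 in KO2 libraries, against -5.60 and -5.49 in control libraries. It fell in KO2 by 0.97 ± 0.21 (adjusted p = 0.0461), and Snhg1-216 fell by 0.93 ± 0.21 (adjusted p = 0.0485). In all 3 the KO1 libraries lay between KO2 and control without overlapping either.

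Snhg1-214 went the other way without passing. It begins between the third and the fourth snoRNA of the gene and had 1.31 and 1.35 in KO1 libraries and 1.51 and 1.57 in KO2 libraries, against 0.78 and 0.78 in control libraries. Its change was 0.55 ± 0.18 (SE, adjusted p = 0.148) in KO1 and 0.76 ± 0.18 (adjusted p = 0.0538) in KO2. In KO2, 12 of the 15 internal-start transcripts were below 0, and in KO1 6 were. Of those 6, the smallest adjusted p in KO1 was 0.424 (Snhg1-204).

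Gas5 (chromosome 1, 161034422 to 161038539, plus strand) carries 9 annotated snoRNA genes, and 8 of their 10 models hold both boxes. Its outer-start transcript Gas5-212 had the highest index of all host transcripts, 11.01 and 10.20 in KO1 libraries and 11.86 and 11.24 in KO2 libraries, against 11.24 and 11.19 in control libraries. Both KO1 libraries lay below both controls, KO2 overlapped control, and no change passed. Gas5-217, which starts 185 bases downstream, had 10.16 and 9.33 in KO1 libraries and 10.27 and 10.05 in KO2 libraries, against 10.25 and 11.19 in control libraries. The 2 controls lay far apart, and KO2 overlapped them. Both starts lie in a stretch of 428 bases shared with Zbtb37 on the other strand. The sources used here do not say whether counting used strand, so signal of the 2 genes cannot be told apart there.

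From the main start of Gas5 the changes were small, and in KO2 they differed in sign with the transcript's end. Gas5-224 had 4.50 and 4.44 in KO1 libraries and 4.76 and 4.72 in KO2 libraries, against 4.49 and 4.46 in control libraries. KO1 overlapped control, and KO2 lay above it by 0.27 ± 0.16 (SE, adjusted p = 0.297). The 9 profiles of this cluster that end at 161038246 or later had KO2 changes of 0.21 to 0.27. The 4 that end between 161036629 and 161037560 (Gas5-201, Gas5-205, Gas5-208 and Gas5-219) had changes of -0.26 to -0.10. In KO1 they did not divide this way: Gas5-224, Gas5-223, Gas5-209 and Gas5-213, which end late, were at -0.0031 to 0.0015, Gas5-220, Gas5-222, Gas5-204 and Gas5-211, which also end late, were at -0.22 to -0.16, and the early-ending Gas5-201 was at -0.02. None of the 13 passed in either knockout.

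Near the 3′ end, Gas5-215 begins between Snord80 and Snord47, 301 bases before Snord47. It had 0.43 and 0.47 in KO1 libraries and 1.26 and 1.30 in KO2 libraries, against 0.095 and 0.0043 in control libraries. The groups did not overlap. It rose in KO2 by 1.23 ± 0.18 (SE, adjusted p = 0.0354) and in the average of both knockouts by 0.82 (adjusted p = 0.0427), while the KO1 change of 0.40 ± 0.18 did not pass (adjusted p = 0.249). Gas5-202, which begins 63 bases upstream of it, had a KO2 change of 0.86 ± 0.20 (adjusted p = 0.052). The lowest Gas5 transcript, Gas5-225, had -3.29 and -3.23 in KO1 libraries and -3.55 and -3.51 in KO2 libraries, against -3.48 and -3.54 in control libraries, with KO2 and control overlapping.

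Snhg6, the host of Snord87 (chromosome 1, 9941959 to 9944118, minus strand), held the largest change among the hosts. Its internal-start transcript Snhg6-205 had 0.92 and 0.82 in KO1 libraries and 2.24 and 2.01 in KO2 libraries, against 0.59 and 0.69 in control libraries. The KO2 libraries stood apart from the other 4. It rose in KO2 by 1.48 ± 0.19 (SE, adjusted p = 0.0354) and in the average of both knockouts by 0.85 (adjusted p = 0.0429), while the KO1 change was 0.23 ± 0.19 (adjusted p = 0.512). KO1 minus KO2 was -1.25 (unadjusted p = 0.000767, adjusted p = 0.188), so the difference between the knockouts did not pass.

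The other Snhg6 transcripts did not pass in either knockout. The highest, the outer-start Snhg6-203, had 3.30 and 3.30 in KO1 libraries and 3.16 and 3.22 in KO2 libraries, against 3.19 and 2.97 in control libraries. Snhg6-202, with the smallest p of the outer starts, had 3.24 and 3.24 in KO1 libraries and 3.12 and 3.18 in KO2 libraries, against 3.07 and 2.86 in control libraries, changes of 0.28 and 0.18. The lowest, Snhg6-201, had -1.09 and -0.92 in KO1 libraries and -0.93 and -1.17 in KO2 libraries, against -0.66 and -0.92 in control libraries. The last 127 bases of Snhg6 overlap Mcmdc2 on the other strand.

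**Figure D5:**
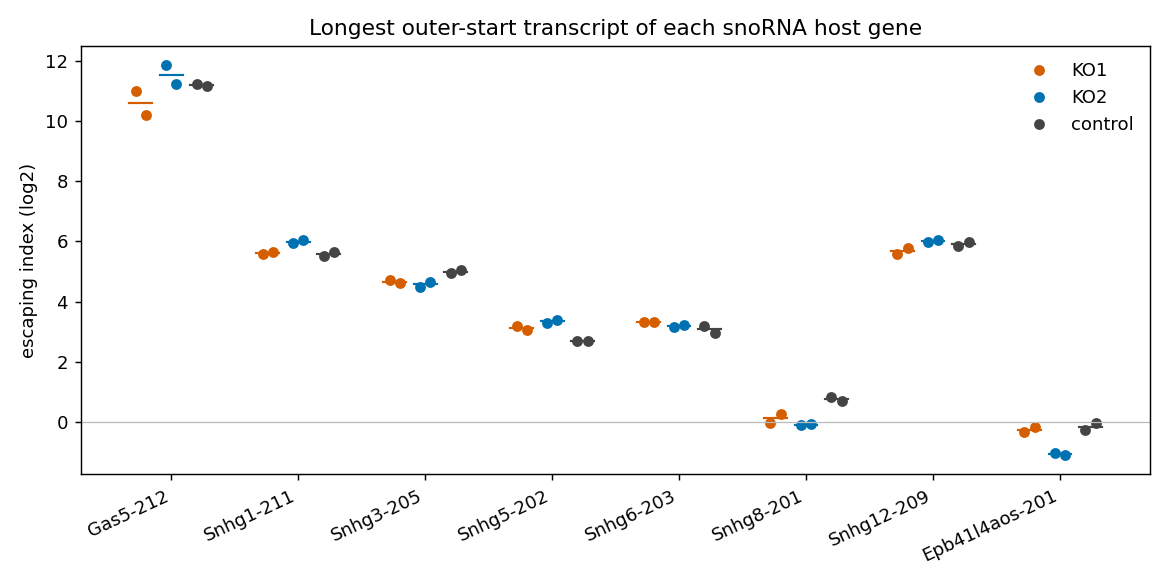
Escaping index (log2, y axis) of the longest outer-start transcript of each host gene (x axis) in each library of KO1, KO2 and control (points, with a bar at the mean of 2). Snhg5-202 lies above both controls in all 4 knockout libraries, Snhg8-201 below both controls in all 4, and Epb41l4aos-201 below both controls in KO2.

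Snhg8 and Epb41l4aos, short hosts of 1 snoRNA gene each, had 5 transcripts, all with a change below 0 in KO2, and none passed. Snhg8 (chromosome 3, 123507552 to 123508404, minus strand) carries Snora24, an H/ACA snoRNA. Snhg8-201 had -0.029 and 0.25 in KO1 libraries and -0.12 and -0.078 in KO2 libraries, against 0.82 and 0.68 in control libraries. All 4 knockout libraries lay below both controls. The change was -0.64 ± 0.21 (SE, adjusted p = 0.146) in KO1 and -0.85 ± 0.21 (adjusted p = 0.0567) in KO2. Snhg8-202, the lowest, had -2.20 and -1.86 in KO1 libraries and -2.16 and -2.16 in KO2 libraries, against -1.74 and -1.79 in control libraries.

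Epb41l4aos (chromosome 18, 33794892 to 33795986, plus strand) was at -0.35 and -0.19 in KO1 libraries and -1.04 and -1.11 in KO2 libraries for Epb41l4aos-201, against -0.28 and -0.057 in control libraries. KO1 overlapped control and KO2 lay below it. The KO2 change was -0.91 ± 0.21 (SE, adjusted p = 0.0502), just outside the threshold. Epb41l4aos-202 had -2.15 and -1.85 in KO1 libraries and -3.15 and -2.85 in KO2 libraries, against -2.25 and -2.35 in control libraries. KO1 lay above control and KO2 below it, and KO1 minus KO2 was 1.00 (unadjusted p = 0.00593, adjusted p = 0.195).

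Snhg12, on chromosome 4 (132308623 to 132311024, plus strand), hosts H/ACA snoRNAs and the C/D snoRNA Snord99. Its highest transcript, Snhg12-209, had 5.58 and 5.78 in KO1 libraries and 6.00 and 6.03 in KO2 libraries, against 5.85 and 5.98 in control libraries. Snhg12-208, an outer-start transcript that ends earlier, had 4.68 and 4.89 in KO1 libraries and 4.94 and 4.93 in KO2 libraries, against 5.00 and 4.97 in control libraries. KO1 lay below control in both, and KO2 above it in Snhg12-209 and below it in Snhg12-208. None of the 6 outer-start profiles passed, with changes of -0.24 to -0.08 in KO1 and -0.05 to 0.15 in KO2. The internal-start Snhg12-203, which begins 123 bases before Snora44, had -2.72 and -2.72 in KO1 libraries and -2.49 and -2.47 in KO2 libraries, against -3.22 and -3.25 in control libraries. All 4 knockout libraries lay above both controls, with changes of 0.52 ± 0.20 (SE, adjusted p = 0.189) in KO1 and 0.76 ± 0.20 (adjusted p = 0.0641) in KO2. The lowest, Snhg12-207, had -3.13 and -3.24 in KO1 libraries and -3.10 and -3.01 in KO2 libraries, against -3.12 and -3.05 in control libraries.

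Snhg3 (chromosome 4, 132348014 to 132353686, minus strand) hosts Snora73a and Snora73b. Its longest transcript, Snhg3-205, had 4.71 and 4.62 in KO1 libraries and 4.50 and 4.65 in KO2 libraries, against 4.94 and 5.06 in control libraries. All 4 knockout libraries lay below both controls, and the changes of -0.33 ± 0.17 (SE) in KO1 and -0.42 ± 0.17 in KO2 did not pass (adjusted p = 0.283 and 0.152). Snhg3-201, an internal start, had 0.84 and 0.39 in KO1 libraries and 0.84 and 0.82 in KO2 libraries, against 0.43 and 0.48 in control libraries. The lowest, Snhg3-202, begins inside Snora73a and had -4.11 and -4.01 in KO1 libraries and -4.79 and -4.69 in KO2 libraries, against -4.24 and -4.18 in control libraries. Snhg3 shares 5592 bases with Rcc1 on the same strand and 1611 bases with Gm17300 on the other, so its signal cannot be told apart from theirs.

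The knockouts were also set against each other. In KO1 against KO2 no host profile passed, and none did in the table (0.0%). With an unadjusted p under 0.05 (16.3% of all profiles), 8 host profiles were higher in KO1 than in KO2 (12.0% of all profiles) and 5 were lower (4.35%). Without overlap between the knockouts, 21 host profiles were higher in KO1 (33.5% of all profiles) and 36 lower (16.6%). In KO2 against control, 36 of the 71 host profiles had both KO2 libraries above both controls (11.8% of all profiles) and 27 had both below (48.6%). In KO1 against control the counts were 25 above (14.7%) and 27 below (40.9%).

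Other genes tied to snoRNAs were described by the longest outer-start transcript of each. Of 15 other noncoding hosts, 11 had one, with median changes of 0.07 in KO1 and -0.06 in KO2, and none passed in either knockout. The transcript taken held an annotated snoRNA in 8 of the 11, whose medians were 0.17 in KO1 and -0.02 in KO2. Those of Snhg10 and Snhg14 held none. Snhg10 was at 2.45 and 2.62 in KO1 libraries and 3.38 and 2.76 in KO2 libraries, against 3.85 and 3.64 in control libraries (average change -0.94, adjusted p = 0.0564). Snhg14 had an average change of 0.78 (adjusted p = 0.103). Of 38 protein-coding hosts, 35 had an outer-start transcript, 34 of them with an annotated snoRNA in it, with medians of -0.28 in KO1 and -0.18 in KO2. Over the table, 4433 of 30124 outer-start profiles fell in KO2 and 70 rose. Of the 35, 1 fell in KO2 and none rose. It was Rpl12, a protein of the large ribosomal subunit, at 5.52 and 5.57 in KO1 libraries and 5.30 and 5.11 in KO2 libraries, against 6.26 and 6.05 in control libraries (KO2 change -0.95 ± 0.18, SE, adjusted p = 0.0387). Rpl30, also of the large subunit, and Eif4a1, a helicase of translation initiation, had average changes of -0.77 and -0.57 (adjusted p = 0.0613 and 0.0679).

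Of 22 snoRNP proteins and assembly factors, 20 had an outer-start transcript, with medians of -0.24 in KO1 and -0.48 in KO2. Of the 20, 4 fell in KO2 and none rose, where 4433 of all 30124 outer-start profiles fell and 70 rose. Nufip1, an assembly factor of C/D snoRNPs, had 4.24 and 4.04 in KO1 libraries and 4.17 and 4.18 in KO2 libraries, against 5.12 and 5.15 in control libraries. It fell in KO2 by 0.96 ± 0.17 (SE, adjusted p = 0.0361). Naf1, an assembly factor of H/ACA snoRNPs, fell in KO2 by 0.88 ± 0.18 (adjusted p = 0.0419), and Nolc1, a nucleolar chaperone of snoRNPs, by 0.92 ± 0.19 (adjusted p = 0.0432). Znhit3, another assembly factor of C/D snoRNPs, fell in KO2 as well (change -1.17 ± 0.24, adjusted p = 0.0423) and had a KO1 change of 0.19. All 17 listed factors of nonsense-mediated decay had an outer-start transcript. All 17 were below 0 in KO2, where 25485 of all 30124 outer-start profiles were, and their median was -0.47. None of the 17 passed, the smallest adjusted p in KO2 being 0.0694 (Upf3b). Upf3b and Smg1, the kinase of the pathway, had average changes of -0.60 and -0.79 (adjusted p = 0.0757 and 0.0793). Over all outer-start profiles the KO2 median was -0.53, so the last 2 lists lay near it.

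The outer-start profiles of other genes most like the hosts were found by the root mean square difference, over the 6 libraries, from the median profile of the 25 outer-start host profiles. That profile was 3.27 and 3.26 in KO1 libraries and 3.16 and 3.22 in KO2 libraries, against 3.13 and 2.97 in control libraries. The nearest were Dpp7-201 (root mean square difference 0.0825), Gpn2-202 (0.0940) and Gnptg-201 (0.0942), all protein-coding.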

How the data were processed

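The submitters' processing notes name build mm10 and the programs featureCounts, HISAT2 2.1.0, Trimmomatic 0.38 and CASAVA. The sources used here do not give their roles, the windows or offset of the index or the use of strand. The authors deposited an escaping index for 68473 transcripts in 6 libraries. Its values were taken to be log2 and tested here as deposited, with no pseudocount, filter or rescaling. The depth per library is unknown, so no counting interval is given. Identifiers were matched without version to GENCODE M21 (68397 matched), and identical profiles within a gene entered a single time. One limma 3.58.1 fit in R 4.3.3 held all 3 groups (group means, variance trend on the mean, two-sided, Benjamini-Hochberg over 67020 profiles, 3 residual and 2.71 prior degrees of freedom), and the procedure was tested on simulated data. Tables were made with Python 3.11.15, pandas 2.3.3 and numpy 2.4.6. Values in every library are given for the outer-start and internal-start transcript of each gene whose p in the average contrast was smallest and for its highest and lowest transcript; related lists are given by counts and the genes with the smallest p. Transcripts named beyond this rule, such as neighbouring starts, were chosen after their values were seen. The members and lists were chosen with earlier results of these data known, so lists carry no test. Alternatives were median centring, quantile normalization, pseudocounts, a filter, averaging per gene, 1 outer-start transcript per gene, fewer samples, no variance trend, a replicate block, leaving out each library and, added after seeing the data, start classes by RefSeq.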

Additional observations from a re-analysis of the deposited data

How the results depend on the processing

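No named transcript changed the sign of a called change. In KO2, 6563 profiles and 7 host profiles passed; both counts were 0 with median centring, with quantile normalization, with only the groups compared and without any 1 library (0 to 0). The 5697 profiles of the average contrast were 0 with median centring, quantile normalization and without any 1 library (0 to 0). Averaged per gene, 1240 in KO2 and 1067 in the average passed, and with 1 outer-start transcript per gene 2831 and 2441, with 0 hosts in both. With the 25% of profiles at the lowest levels left out, 2 host profiles passed in KO2, Snhg6-205 and Snhg1-214. Of the 7 that passed with all profiles, this filter kept only Snhg6-205. The 5 falls and the other rise were left out by it, so they were not tested there. KO1 and KO1 against KO2 had 0 calls under every setting, leave-one-out included (0 to 0). Same-numbered libraries did not deviate together (r from -0.0073 to 0.015), so they share only a number; with the replicate block 0 profiles and 0 host profiles passed in KO2 and 0 in the average. The cause of these losses was not tested. The outer-start median was 0.12 (centring), 0.19 (quantile), -0.019 (pseudocount 4) and -0.027 (lowest 25% out) in KO1, against -0.10 as deposited; 0.43 and 0.51 (centring, quantile) in KO2, against 0.10; and 0.25, 0.35, 0.082 (lowest 25% out) and -0.10 (1 transcript per gene) in the average, against -0.022. The internal-start median was 0.22, 0.21 (centring, quantile) and 0.15 (RefSeq starts) in KO1, 0.35, 0.24 and 0.23 (lowest 25% out) in KO2, and 0.31 and 0.28 in the average. Leaving out 1 library gave outer-start medians of -0.10 to -0.0034 (KO1), 0.054 to 0.10 (KO2) and -0.053 to 0.021 (average), and internal-start medians of -0.038 to 0.027, 0.0033 to 0.035 and 0.023 to 0.053. With a pseudocount of 0.4 or 4 the 5 host falls no longer passed and the 2 rises did. The ratios of the 5 falls lay far below either constant, so that loss was fixed by their levels and does not test them. Epb41l4aos-201 and Snhg8-201 passed in KO2 with a pseudocount of 0.4 or 4 and Snhg1-214 with 4. Depth is unknown, and 2 libraries a group limit the precision.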
